A study of Mus musculus with 6 samples.

Results

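The transcripts described here encode the proteasome with its activators and assembly chaperones. They are the protein-coding genes of GENCODE release M21 whose name starts with Psm, a letter from a to g and a digit, plus Pomp, and they number 51 of the 48440 genes in the deposited table of read counts. The rule reads names only. It therefore also takes in Psmc3ip, a meiotic recombination factor named after a binding partner, which is given last and apart.

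The libraries come from primary CD4+ T cells out of spleen and lymph node of wildtype mice. All cells had first been activated on plate-bound antibodies against CD3 and CD28 for 3 days and then grown in IL2 for 5 days. The 3 unstimulated libraries are from cells left at rest after that. The 3 stimulated libraries are from cells given both antibodies again for 4 hours, so that the comparison is of rested T cell blasts with the same blasts after renewed receptor signalling, not of naive cells with activated ones. The labels give no age, sex or strain of the mice. They call the libraries replicates without saying whether they come from separate mice or cultures, so a p-value here weighs a difference against the spread of 3 libraries a group, and that spread may be only technical.

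The proteasome is the protease that degrades proteins tagged with ubiquitin. Its core particle is a barrel of stacked rings: outer alpha rings, encoded by the Psma genes, form the gate, and inner beta rings, encoded by the Psmb genes, carry the catalytic sites. A regulator particle caps the barrel. The ATPases and scaffold proteins of its base (Psmc genes, Psmd1, Psmd2 and the ubiquitin receptor Psmd4) unfold and thread the substrate, and its lid (most other Psmd genes) removes the ubiquitin. Psmd5, Psmd9 and Psmd10 encode chaperones that help to build the base. Lymphocytes can replace the catalytic beta subunits with immune forms (Psmb8, Psmb9 and Psmb10), which favour the cutting of peptides for MHC class I, and can cap the core with other activators (Psme genes). In T cells the proteasome degrades inhibitors of NF-kB and cell cycle regulators after receptor signalling.

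The promoters of 6 genes are shown because the comparison turns on these pairs: Psmb5 and Psmb6 encode constitutive catalytic subunits, Psmb8 and Psmb9 the immune forms that take their places, and Psme1 and Psme3 are activators that rose to different extents. The sequences are RefSeq promoters of build GRCm38.p6, each 300 bases from 250 before to 50 after the annotated start, written 5′ to 3′ on the strand of the gene. For Psmb8, Psmb9 and Psme1 the whole window lies inside the gene as GENCODE M21 annotates it. Bases before the GENCODE start of these genes were therefore not searched. Capitals mark every match to 4 sets of letters searched on both strands, described after the sequences. In the order printed they lie at chr14:54617946-54618245 (minus strand, Psmb5), chr17:34197945-34198244 (plus, Psmb8), chr11:70525107-70525406 (plus, Psmb6), chr17:34187281-34187580 (minus, Psmb9), chr14:55578244-55578543 (plus, Psme1) and chr11:101315963-101316262 (plus, Psme3).
Psmb5: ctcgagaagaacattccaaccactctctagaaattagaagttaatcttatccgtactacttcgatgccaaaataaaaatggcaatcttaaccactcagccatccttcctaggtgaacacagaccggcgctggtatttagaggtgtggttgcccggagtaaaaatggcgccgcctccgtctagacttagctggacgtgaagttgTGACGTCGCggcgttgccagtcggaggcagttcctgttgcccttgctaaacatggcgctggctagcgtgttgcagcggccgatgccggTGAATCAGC
Psmb8: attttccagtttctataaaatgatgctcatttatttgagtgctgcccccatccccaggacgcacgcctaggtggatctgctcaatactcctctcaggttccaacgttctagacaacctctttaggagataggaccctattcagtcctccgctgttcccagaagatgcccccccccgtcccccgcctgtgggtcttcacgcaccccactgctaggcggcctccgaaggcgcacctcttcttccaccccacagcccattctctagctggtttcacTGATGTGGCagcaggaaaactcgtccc
Psmb6: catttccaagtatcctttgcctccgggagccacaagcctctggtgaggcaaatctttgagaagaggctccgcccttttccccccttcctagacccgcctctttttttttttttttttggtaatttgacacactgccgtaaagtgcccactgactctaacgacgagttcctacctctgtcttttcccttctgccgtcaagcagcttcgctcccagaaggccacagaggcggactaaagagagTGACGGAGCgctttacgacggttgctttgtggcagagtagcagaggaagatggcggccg
Psmb9: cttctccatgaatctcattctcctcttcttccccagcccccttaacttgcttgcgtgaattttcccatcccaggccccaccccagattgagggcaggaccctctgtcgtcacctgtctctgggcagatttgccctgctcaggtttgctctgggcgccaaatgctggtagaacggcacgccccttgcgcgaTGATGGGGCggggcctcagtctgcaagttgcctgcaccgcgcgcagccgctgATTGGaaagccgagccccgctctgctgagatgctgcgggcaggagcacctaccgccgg
Psme1: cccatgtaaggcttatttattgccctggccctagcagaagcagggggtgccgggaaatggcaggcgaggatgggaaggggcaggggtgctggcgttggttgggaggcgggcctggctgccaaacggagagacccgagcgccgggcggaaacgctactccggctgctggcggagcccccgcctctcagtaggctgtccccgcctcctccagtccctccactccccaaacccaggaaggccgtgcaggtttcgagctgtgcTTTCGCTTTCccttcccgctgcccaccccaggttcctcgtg
Psme3: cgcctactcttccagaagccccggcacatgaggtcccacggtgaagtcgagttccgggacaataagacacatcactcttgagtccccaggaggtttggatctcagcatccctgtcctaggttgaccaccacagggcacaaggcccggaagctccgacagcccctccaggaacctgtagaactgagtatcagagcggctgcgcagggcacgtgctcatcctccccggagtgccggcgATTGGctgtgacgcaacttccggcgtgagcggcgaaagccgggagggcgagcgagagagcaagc

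The first letters searched, TGANNNNGC, are a loose form of the core of the antioxidant response element, to which the NFE2L1 and NFE2L2 factors bind. GAAA, 2 free bases and GAAA stand for the core of the interferon-stimulated response element. GGGA, 4 free bases and CC are a loose kappa B form, and the last set is CCAAT. N stands for any base, and matches to different sets were allowed to overlap. Psmb5 holds TGANNNNGC at position -47 and again at 42, counted from the start site with no position 0, Psmb6 at -9, Psmb8 at 24 and Psmb9 at -60. Psme1 holds the interferon element on the opposite strand at 10. Psmb9 and Psme3 hold CCAAT on the opposite strand at -8 and -14. Of the 51 genes, 43 have a promoter in the table. TGANNNNGC occurred in 24 of these, or 55.8%, against 48.2% of the 9663 promoter-matched genes tested in these libraries, and CCAAT in 34.9% against 42.7%. The kappa B form occurred in 25.6% against 29.9%. The interferon element occurred in 5 of the 43 (Psmb3, Psmd4, Psmd9, Psme1 and Psmg4), or 11.6% against 3.89%. The median log2 fold change on restimulation was 0.99 for the 23 tested genes with TGANNNNGC and 0.93 for the 19 without it. For the interferon element the medians were 0.78 for the 5 with it and 0.99 for the 37 without. These matches describe letters in a window, not bound sites.

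Restimulation raised the proteasome transcripts broadly. Levels are read counts in CPM, scaled to library sizes that edgeR's TMM method had adjusted. Each change is the log2 of the stimulated level over the resting level, as edgeR fitted it, with its SE. A gene was called when its Benjamini-Hochberg adjusted p over all tested genes was at most 0.05 in edgeR's quasi-likelihood test. Of the 51 genes, 49 had enough reads to be tested, and 43 of them were called higher, or 87.8%, against 38.4% of all 13314 tested genes. The 2 genes called lower were Psmd10 and Psme2b, where 39.1% of all tested genes were lower. Scaling by library size alone gave 39 higher and 4 lower, with Psmb1 and Psmd8 added to the genes called lower. Among all 13314 tested genes, 4563 were higher and 5818 lower with that scaling. In 41 of the 49 every stimulated library lay above every unstimulated one, against 39.4% of all tested genes, and in Psmd10 and Psme2b every one lay below. Groups without overlap in either direction made up 79.8% of all tested genes. The median change of the 49 was 0.99, and that of all tested genes -0.04.

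When tested against a change of 2-fold (edgeR's glmTreat), 17 of the 49 rose by more than that, or 34.7%, against 17.4% of all tested genes, and none fell by more, against 18.2%. The reads of all 51 genes together made up 0.522%, 0.521% and 0.572% of the reads of the unstimulated libraries and 0.907%, 0.909% and 0.936% of those of the stimulated ones. Their summed normalised level was 5023, 4960 and 5406 CPM in the unstimulated libraries and 9695, 9540 and 9656 CPM in the stimulated ones, a ratio of means of 1.88 (1.70 with library size alone). The stimulated sums lay closer together (SD 80.6 CPM) than the unstimulated sums (SD 241 CPM). In bulk samples a change in the RNA of every cell cannot be told apart from a change in the share of cells that express a gene, and RNA per cell was not measured.

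**Figure D1:**
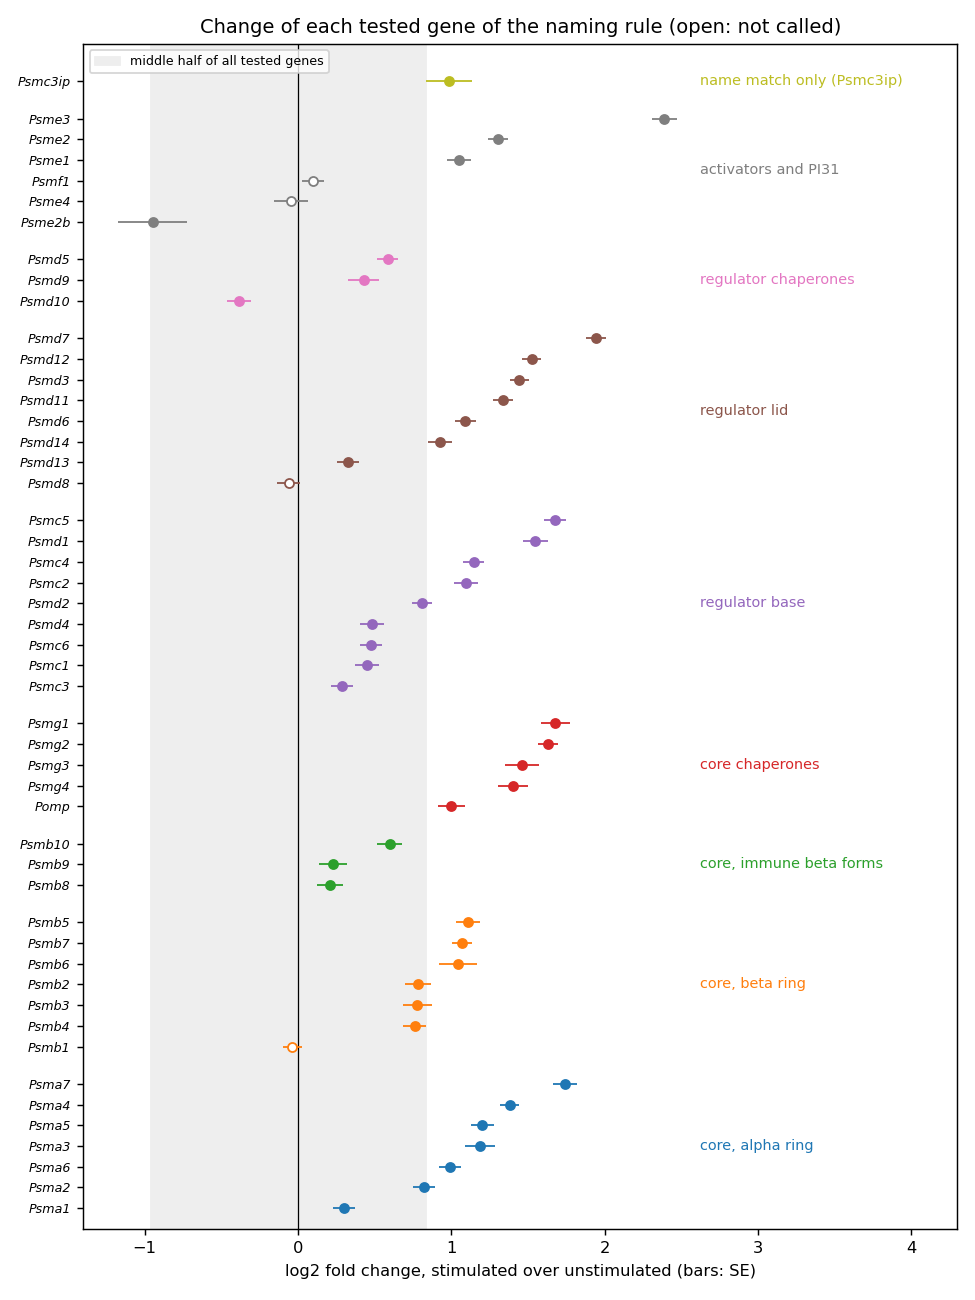
Log2 fold change (stimulated over unstimulated) of the 49 tested genes, with bars for the SE, grouped by role; open circles did not pass the test. The grey band spans the quartiles of all 13314 tested genes, -0.96 to 0.83; the core chaperones and most alpha ring genes lie to its right, the immune beta forms inside it and Psme3 farthest out at 2.39.

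The libraries held 29897720 to 30252923 reads, and 3 reads in a library corresponded to 0.0943 to 0.106 CPM. All 7 T cell markers (Cd4, Cd3d, Cd3e, Cd3g, Trac, Trbc2 and Lck) were present. All were called lower after stimulation, against 39.1% of all tested genes, with sums of 3746 to 4081 CPM at rest and 1883 to 1891 CPM after it. Markers of other cells of spleen and lymph node were read beside them, because such cells also express immune proteasome genes. The 8 B cell markers summed to 1509 to 2984 CPM at rest and 894 to 1420 CPM after stimulation, most of it Ighm. Of these markers, 6 were called lower, Cd74 was called higher (0.43) and Pax5 was not called. The 7 myeloid markers, all with reads, summed to 10.5 to 13.2 CPM at rest and 3.07 to 3.79 CPM after stimulation. The dendritic cell markers summed to 1.38 to 2.32 and 5.83 to 7.98 CPM, with Siglech, Clec9a and Cd209a at 0 reads. Itgax, Zbtb46 and Xcr1 were called higher (3.27, 3.04 and 1.25) and Flt3 lower (-1.12). The 5 NK cell markers summed to 2.48 to 20.3 CPM at rest and 58.7 to 113 CPM after stimulation, most of it Eomes, which was called higher and which activated T cells also express, while Ncr1, Klrb1c and Klra8 each had at most 0.0948 CPM in any library. The 2 CD8 T cell markers summed to 20.9 to 24.8 and 20.7 to 25.8 CPM, with Cd8a called higher and Cd8b1 lower. The 4 erythroid markers summed to 0.573 to 1.67 and 0.213 to 0.620 CPM. Their part in the results was not tested.

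The alpha ring genes rose together. All 7 tested members were called higher, with a median change of 1.19 and a range of 0.30 to 1.74, and 4 rose by more than 2-fold. Psma7 had the largest change of the ring, with 106, 109.9 and 126 CPM at rest and 378, 374 and 392 CPM after restimulation (log2 fold change 1.74, SE 0.079). The next largest changes were those of Psma4 (1.38), Psma5 (1.20) and Psma3 (1.19). Psma1, another alpha subunit, had the smallest, from 121, 126 and 139.6 to 158, 159.7 and 158.5 CPM (0.30, SE 0.072; edgeR, adjusted p = 0.0039). The groups did not overlap for either gene. With library size alone Psma1 was no longer called (0.16; edgeR, adjusted p = 0.0763). The eighth alpha gene, Psma8, is a testis form that replaces Psma7 in germ cells. It had 0, 2 and 1 reads at rest and 2, 5 and 0 after stimulation, at most 0.176 CPM, and was not tested.

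In the constitutive beta ring 6 of 7 genes were called higher, with a median of 0.78, and none by more than 2-fold in the test against that size. The catalytic subunits led. Psmb5, the chymotrypsin-like subunit (ENSMUSG00000022193, chromosome 14, 54614119 to 54618022 in GRCm38), had 80.4, 79.5 and 90.3 CPM at rest and 172, 176 and 192 CPM after restimulation (1.11, SE 0.079). Psmb7, the trypsin-like subunit, went from 75.4, 76.5 and 80.0 to 161, 167 and 159 CPM (1.07, SE 0.063). Psmb6, the caspase-like subunit, went from 72.7, 81.3 and 99.8 to 156, 181 and 186.5 CPM (1.04, SE 0.12). The 3 changes, from 1.04 to 1.11, differed by less than the SE of that of Psmb6. The non-catalytic subunits Psmb2, Psmb3 and Psmb4 rose by 0.76 to 0.78. Psmb1, also non-catalytic, was the exception: it had 202, 208 and 218 CPM at rest and 200.3, 210.3 and 200.5 CPM after stimulation (-0.04, SE 0.062; edgeR, adjusted p = 0.594), and the groups overlapped. At rest it had the most reads of the 14 constitutive core genes. With library size alone its change was -0.18, and it was called lower (edgeR, adjusted p = 0.0316).

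The immune beta forms moved less than the subunits they replace. Psmb8 (ENSMUSG00000024338, chromosome 17, 34197721 to 34201454) takes the place of Psmb5. It was abundant already at rest, with 428, 420.1 and 453 CPM, and had 549, 445 and 511 CPM after restimulation (0.21, SE 0.083; edgeR, adjusted p = 0.043). Psmb9 (ENSMUSG00000096727, chromosome 17, 34181987 to 34187764) takes the place of Psmb6 and went from 264, 239 and 263 to 316, 259 and 321 CPM (0.23, SE 0.093; edgeR, adjusted p = 0.0494). For both genes the groups overlapped through stimulated replicate 2. Psmb10, which takes the place of Psmb7, went from 142, 131 and 138 to 217, 186 and 219 CPM without overlap (0.60, SE 0.081; edgeR, adjusted p = 0.00012).

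The calls of Psmb8 and Psmb9 were at the edge of the test. They were lost with library size alone (changes of 0.07 and 0.09; edgeR, adjusted p = 0.456 and 0.411). Psmb8 lost its call without unstimulated replicate 1 (adjusted p = 0.0695) or 2 (0.150) and without stimulated replicate 1 (0.133) or 3 (0.0976). Psmb9 lost it without unstimulated replicate 2 (adjusted p = 0.188) or 3 (0.0715) and without stimulated replicate 1 (0.129) or 3 (0.152). With replicate number as a block both kept their calls (edgeR, adjusted p = 0.0118 for Psmb8 and 0.0053 for Psmb9). The labels do not say that the numbers mark pairs. In all, Psmb8 lost its call in 7 of 14 alternatives and Psmb9 in 8. The adjusted p over them ran from 0.0080 to 0.540 for Psmb8 and from 0.0053 to 0.479 for Psmb9. Psmb10 kept its call in all 14 alternatives. Without stimulated replicate 2 the changes of Psmb8 and Psmb9 were 0.30 and 0.33. That library had the lowest stimulated level of Psmb8, Psmb9, Psmb10, Psme1 and Psme2 alike, and unstimulated replicate 2 the lowest resting level of all 5. The fourth beta variant, Psmb11 of the thymic cortex, had 0 reads in every library, which allows up to 0.106 CPM.

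**Figure D2:**
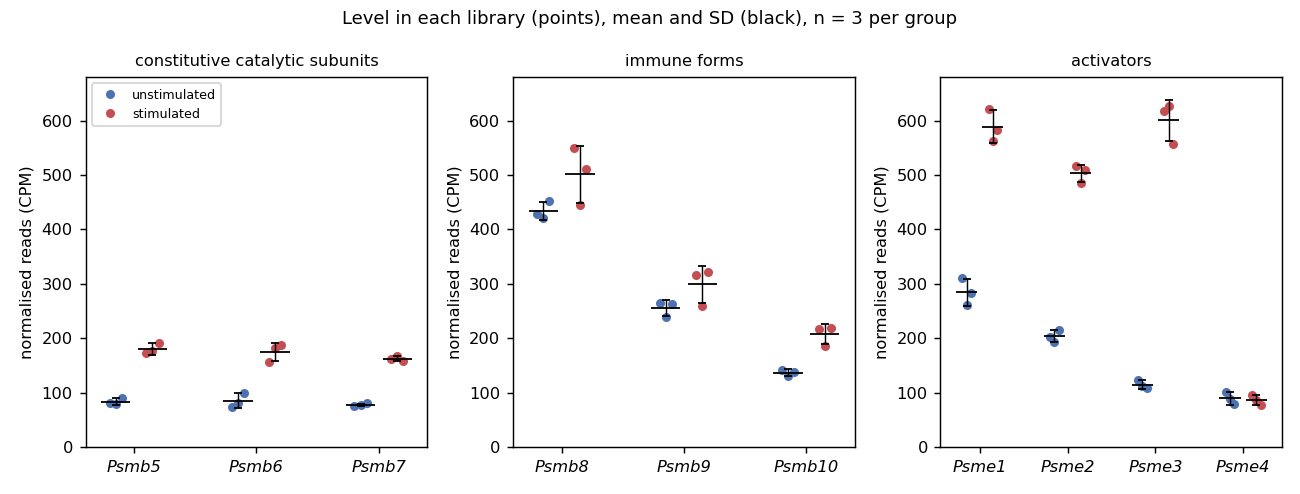
Normalised reads (CPM) of the constitutive catalytic subunits, their immune forms and the activators in each of the 3 unstimulated and 3 stimulated libraries, with mean and SD in black. Psmb5, Psmb6 and Psmb7 separate fully between groups, Psmb8 and Psmb9 do not, and Psme3 rises from below Psme2 at rest to the level of Psme1.

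Ratios within a library do not depend on library scaling. Per read of Psmb5 there were 5.33, 5.28 and 5.02 reads of Psmb8 at rest and 3.19, 2.53 and 2.66 after restimulation. The mean log2 ratio went from 2.38 ± 0.0469 to 1.48 ± 0.174 (SD, n = 3), a difference of -0.91 (SE 0.10), or 1.87-fold lower. The ratio of Psmb9 to Psmb6 was 3.64, 2.94 and 2.63 at rest and 2.03, 1.43 and 1.72 after stimulation, a log2 difference of -0.83 (SE 0.20). The ratio of Psmb10 to Psmb7 was 1.89, 1.71 and 1.72 at rest and 1.35, 1.11 and 1.38 after stimulation, a log2 difference of -0.48 (SE 0.11). All 3 ratios were lower in every stimulated library than in any unstimulated one, and the immune form still had more reads than its counterpart in all 6 libraries. In 2-sided exact permutation tests each gave p = 0.1, the smallest that 3 against 3 libraries allow, and 0.1 after adjustment over the 5 ratios computed. Read ratios of different genes also carry their lengths. Per kb of merged exons Psmb8 was at 128 ± 5.07 CPM at rest against 92.8 ± 6.65 for Psmb5, and at 148 ± 15.5 against 200.2 ± 11.7 after stimulation, so the order turned on this scale. For this pair it turned with this length only. Per kb of the longest transcript Psmb8 was at 227.5 and 263 CPM, and per kb of the principal isoform, a length added after the data were seen, at 266.5 and 308 CPM, above Psmb5 at 92.8 and 200.2 CPM per kb with either. Psmb9 was at 69.8 CPM per kb of merged exons at rest against 45.2 for Psmb6, and at 81.65 against 93.2 after stimulation. With the longest transcript they were near equal at rest (88.6 and 87.6), and Psmb9 was lower after stimulation (103.6 against 180.7). With the principal isoform Psmb9 was higher at rest (188.9 against 106.0) and near equal after stimulation (221.0 and 218.7). Psmb10 stayed above Psmb7 with each length.

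The activators went 3 ways. Psme3, the nuclear activator that promotes degradation without ubiquitin (ENSMUSG00000078652, chromosome 11, 101316213 to 101323537), had the largest change of all 49 genes, from 123, 112 and 108.5 to 617, 627 and 557 CPM (2.39, SE 0.079; 5.24-fold). Psme1 and Psme2, which form the interferon-inducible activator, rose less. Psme1 went from 310.5, 260.1 and 282 to 622, 563 and 582 CPM (1.05, SE 0.079) and Psme2 from 202, 193 and 215 to 516, 486 and 509 CPM (1.31, SE 0.066). Psme1 and Psme2 stand 5912 bases apart on chromosome 14. For all 3 the groups were far apart. Psme4, a large nuclear activator tied to acetylated histones, had 101, 88.0 and 78.0 CPM at rest and 94.8, 86.9 and 77.6 CPM after stimulation (-0.04, SE 0.11; edgeR, adjusted p = 0.725), with overlapping groups. Psmf1, whose product PI31 binds the core and blocks it in vitro, had 48.7, 51.2 and 56.7 and then 56.6, 56.2 and 54.8 CPM (0.10, SE 0.074; edgeR, adjusted p = 0.250). The sign of its change and that of Psme4 depended on the setting.

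Within libraries, there were 0.397, 0.430 and 0.384 reads of Psme3 per read of Psme1 at rest and 0.992, 1.11 and 0.956 after stimulation, a log2 difference of 1.34 (SE 0.082). For Psme4 the values were 0.326, 0.338 and 0.276 and then 0.152, 0.154 and 0.133, a log2 difference of -1.09 (SE 0.11). Neither pair of groups overlapped (exact permutation p = 0.1 for both, the smallest possible). Psme2b, a single-exon copy of Psme2 on chromosome 11, was called lower, from 16.01, 15.7 and 10.03 to 9.18, 6.60 and 5.89 CPM (-0.95, SE 0.22; edgeR, adjusted p = 0.0043). Its reads can be shared with Psme2, and its exon overlaps 9930111J21Rik1 by 41 bases, so its value is uncertain.

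**Figure D3:**
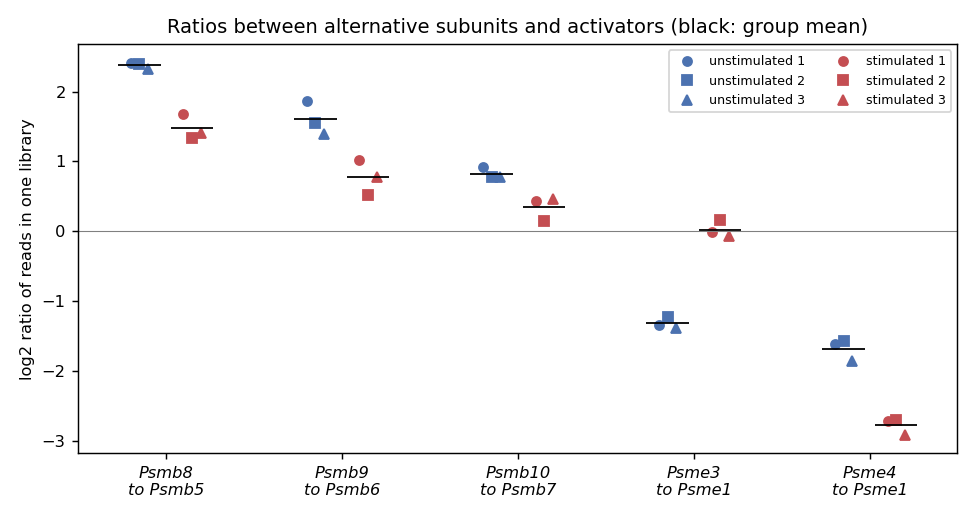
Log2 ratio of reads of 2 genes in each library, for the 3 immune forms against the subunits they replace and for Psme3 and Psme4 against Psme1; marker shapes give the replicate number and black lines the group means. The first 3 ratios and that of Psme4 are lower in all stimulated libraries, and that of Psme3 reaches about 0, which is equal reads.

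The chaperones that build the core rose with it. All 5 were called higher, with a median of 1.46, and 4 by more than 2-fold. Psmg1 and Psmg2 pair to start the alpha ring: Psmg1 went from 21.9, 22.7 and 27.2 to 73.1, 77.5 and 78.9 CPM (1.68, SE 0.094) and Psmg2 rose by 1.63. Psmg3 and Psmg4, a second pair that stabilises the ring, rose by 1.46 and 1.40. Pomp, which guides the beta subunits onto the ring and is the first substrate of the finished core, had the smallest change of the 5 but rose without overlap, from 95.8, 98.3 and 118.5 to 208.5, 208.3 and 207.7 CPM (1.00, SE 0.089). Its 3 stimulated values lay within 1 CPM of each other.

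The chaperones of the regulator moved in both directions. Psmd5, which holds ATPases of the base, rose from 37.0, 40.1 and 39.6 to 59.3, 60.2 and 55.6 CPM (0.59, SE 0.069). Psmd9, another base chaperone, rose by 0.43 (SE 0.099). Psmd10, which encodes gankyrin and also binds cell cycle regulators, fell from 26.1, 24.0 and 25.8 to 19.6, 19.1 and 19.4 CPM, without overlap (-0.39, SE 0.076; edgeR, adjusted p = 0.0013), and was called lower in all 14 alternatives.

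Of the 9 genes of the regulator base all were called higher, with a median of 0.81 and a range of 0.29 to 1.68. The ATPases, which form 1 ring and are needed in equal number, moved unequally. Psmc5 had the largest change, from 64.4, 62.6 and 69.3 to 215, 214.8 and 197.5 CPM (1.68, SE 0.072), followed by Psmc4 (1.14) and Psmc2 (1.10). Psmc6 and Psmc1 rose by 0.47 and 0.45. Psmc3 had the smallest change, from 124, 134 and 144 to 166.5, 163 and 161 CPM (0.29, SE 0.073; edgeR, adjusted p = 0.0058), and with library size alone it was no longer called (0.15; edgeR, adjusted p = 0.105). Psmd1 and Psmd2, the large scaffold subunits, rose by 1.55 and 0.81, and Psmd4, a ubiquitin receptor, by 0.48.

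In the lid 7 of 8 genes were called higher, with a median of 1.21. Psmd7 had the largest change of the whole regulator, from 57.4, 54.0 and 52.9 to 212, 209 and 212 CPM (1.95, SE 0.065; 3.85-fold). Psmd7 pairs with Psmd14, the deubiquitylase of the lid, which rose by 0.93. The scaffold subunits Psmd12, Psmd3, Psmd11 and Psmd6 rose by 1.52, 1.44, 1.34 and 1.09, and Psmd13 by 0.33. Psmd8, which joins the lid last, had 182, 183 and 209 CPM at rest and 178, 183 and 188 CPM after stimulation (-0.06, SE 0.074; edgeR, adjusted p = 0.462), with overlapping groups. At rest it had the most reads of the lid genes. With library size alone Psmd8 changed by -0.20 and was called lower (edgeR, adjusted p = 0.0417).

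Compared per length, the levels of the regulator genes lay closer together after restimulation. Over the 17 base and lid genes the highest level in CPM per kb of merged exons was 6.21, 6.57 and 7.89 times the lowest in the unstimulated libraries and 5.59, 5.48 and 5.87 times in the stimulated ones. With the principal isoform as length the values were 5.28, 5.58 and 6.71 and then 3.01, 2.94 and 2.96. The SD of their log2 levels was 0.752, 0.774 and 0.828 at rest and 0.647, 0.631 and 0.647 after stimulation, and was lower in all stimulated libraries with each of the 3 lengths tried. For the 14 constitutive core genes that SD was 0.626, 0.617 and 0.621 at rest and 0.715, 0.714 and 0.744 after stimulation on merged exons. The core result depended on the measure. Per kb of the longest transcript the SD was 0.667 to 0.671 at rest and 0.669 to 0.696 after stimulation, while the highest level went from 5.37, 5.47 and 5.94 times the lowest to 4.85, 4.58 and 4.83 times. With the principal isoform the SD was 0.551 to 0.559 at rest and 0.613 to 0.646 after stimulation. The highest level was then 3.71 to 4.07 times the lowest at rest and 4.59 to 4.80 times after stimulation. Psmd1 and Psmd11, the lowest of the regulator genes per kb of merged exons at rest (9.11 ± 0.462 and 11.8 ± 0.481 CPM per kb), were still the lowest after stimulation on that length (26.6 ± 2.16 and 29.7 ± 1.02). With the longest transcript the lowest after stimulation were Psmc2 and Psmc6 (52.9 and 54.6 CPM per kb). With the principal isoform they were Psmc6 and Psmd13 (54.6 and 61.8). These are descriptions with no test.

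**Figure D4:**
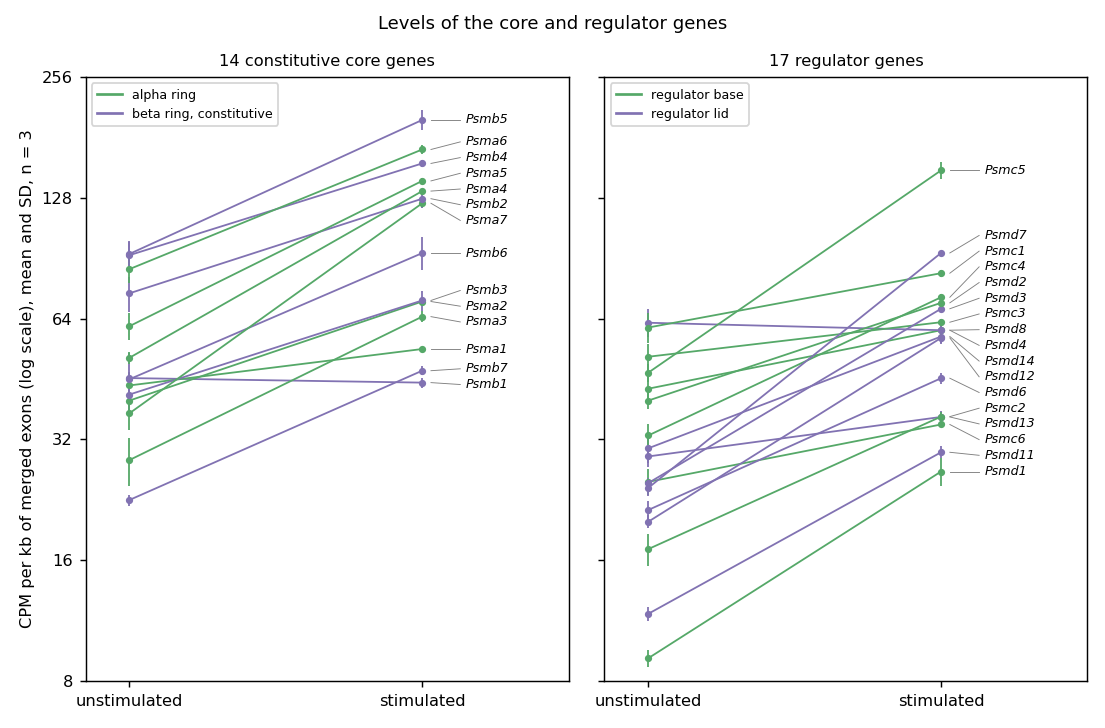
Level in CPM per kb of merged exons (log scale, mean and SD over 3 libraries) of the 14 constitutive core genes and the 17 genes of the regulator base and lid, joined between the groups. Psmb1 and Psmd8 run flat while the lines around them climb, and the line of Psmd7 climbs most steeply among the regulator genes.

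Most genes of proteins that work with the proteasome but are named differently also rose. Of 17 such genes listed, 16 were matched (Paaf1 was not analysed here) and tested. Of these, 13 were called higher and none lower, where 38.4% of all tested genes were higher and 39.1% lower. The median change of the 16 was 1.05. Akirin2, Fbxo7 and Ubqln2 did not pass, with changes of -0.23, -0.19 and 0.06. The largest change was that of Ubqln4, a shuttle for ubiquitylated proteins, from 44.8 ± 3.52 to 199 ± 6.07 CPM (2.15, SE 0.078). Among subunits of the regulator without a Psm name, the ubiquitin receptor Adrm1 rose by 1.39 and the small lid subunit Sem1 by 0.34. The deubiquitylases that bind the regulator, Usp14 and Uchl5, rose by 1.32 and 1.02.

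Genes known to set proteasome transcription moved in both directions. Nfe2l1 encodes the factor that drives proteasome genes when degradation falls short, and it rose from 81.4 ± 7.17 to 173 ± 14.7 CPM (1.09, SE 0.092). Ngly1 removes the sugars from that factor before it enters the nucleus. It fell from 131 ± 2.95 to 24.3 ± 0.742 CPM (-2.43, SE 0.065). Vcp, which draws the factor out of the membrane, rose by 0.39, and Nfe2l2, a related factor, fell by 0.91. Ddi2, the protease that cuts the factor free and is listed among the partners above, rose by 0.66. Irf1, which drives the immune forms under interferon, rose by 0.93. All 5 genes of class I peptide supply listed (Tap1, Tap2, Tapbp, Erap1 and B2m) were called higher, against 38.4% of all tested genes. Their median change was 0.50. Stimulated replicate 2 was the lowest stimulated library for Tap1, Tap2, Tapbp and B2m as for the immune forms, but not for Erap1, whose lowest was replicate 3.

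The genes lie on 16 chromosomes, with 10 of the 51 on chromosome 11 and 6 each on chromosomes 2 and 14. Psmb8 and Psmb9 lie 9957 bases apart on chromosome 17, and Psmb5 and the unread Psmb11 lie 3411 bases apart on chromosome 14. In both cases no protein-coding gene lies wholly within the gap. Genes that overlap a neighbour, as Tap1 overlaps Psmb9, were not counted there. The strand setting of the counting is not given in the sources used here, so reads from overlapping genes cannot be told apart. Psmb9 shares 212 exonic bases with Tap1 on the opposite strand, 5.8% of its exons, and Tap1 had 196% as many reads. Psmb7 shares 405 with Nek6, 11.8% of its exons, and Nek6 had 51.7% as many reads. The other overlapping genes had under 10% of the reads of the member, except those of Psme2b and Psmc3ip. Psmc3ip rose from 4.20, 4.52 and 5.09 to 10.6, 8.39 and 8.37 CPM (0.99, SE 0.15; edgeR, adjusted p = 0.00025). It shares 385 bases, 21.2% of its exons, with Mlx, which had 608% as many reads, and its value is uncertain. Without it, 42 of 48 tested genes were called higher.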

How the data were processed

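RNA of 3 unstimulated and 3 stimulated CD4+ T cell libraries was analysed from 1 table. Its values are raw read counts per Ensembl gene as the authors deposited them. The submitters' processing notes name GRCm38, HTSeq, STAR 2.5.2a and DESeq2, with no statement of which step each served. For annotation release, strand setting and read filters: not given in the sources used here. Names, types, positions and exon lengths came from GENCODE M21 (GRCm38), which matched 48058 of 48440 identifiers. Groups and replicate numbers came from the labels, which give no batch.

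Counts were tested with edgeR 4.0.16 in R 4.3.3 (TMM, filterByExpr, robust dispersion, 2-sided quasi-likelihood test, no covariate, Benjamini-Hochberg over all 13314 genes left, threshold 0.05), and with glmTreat against 2-fold. SE came from the log2 change and the F statistic. CPM used TMM-scaled library sizes. The 5 within-library ratios were tested by exact permutation (scipy 1.17.1). Floors of 3 reads cover counting error only. The code was tested on simulated data.

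The members, their roles, the lists, the tests and the naming rule were chosen with earlier results of these data known. The rule gives library values for the largest and smallest change of each role, the catalytic and immune subunits, the activators, Pomp, Psmd10 and each gene that failed the test or the filter, and for each pathway list the largest rise and fall. Other genes were named after their values were seen. Some genes of the marker and pathway lists are not reported here. Alternatives were RLE, library size alone, library sizes without the 20 most abundant genes, 2 other filters, DESeq2 1.42.0, limma-voom (limma 3.58.1), replicate number as a block, each library left out, an adjusted p of 0.01, an added count in the ratios and other gene lengths.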

Additional observations from a re-analysis of the deposited data

How the results depend on the processing

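Over the alternatives, 38 to 43 genes were called higher. The number called lower was 2 throughout, except that it was 4 with library size alone and 4 without the 20 most abundant genes in the library sizes. Between 14 and 21 rose by more than 2-fold. Leaving out single libraries gave 41 to 43 higher, and 15 to 21 beyond 2-fold. Library size alone moved the median change of all tested genes from -0.04 to -0.18 and the ratio of summed CPM to 1.70. Of 686 refitted changes of the 49 tested genes, 658 kept direction and call, 20 lost the call, 4 gained it and 4 turned sign. The turned ones were Psmf1 (-0.042 with library size alone, -0.054 without the 20 most abundant genes) and Psme4 (-0.144 to 0.060 over the single libraries left out, above 0 without unstimulated replicate 1 or stimulated replicate 3); neither was called in any setting. The cause was not tested. All 5 ratios kept their sign when single libraries were left out. The highest resting level of a constitutive core gene was 4.12 times the lowest per kb of merged exons, 5.59 times with the longest transcript and 3.92 times with the principal isoform, a length added after the data were seen.

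Same-numbered libraries deviated together for numbers 1 and 3 (correlations of 0.361 and 0.380) and hardly for 2 (0.0845). Each library correlated best with its own number, and between numbers 1 and 3 the correlations were -0.363 and -0.326. The labels do not say that the numbers mark pairs, so the main fit did not take them as such. With replicate number as a block 43 genes were called higher, 2 lower and 18 beyond 2-fold. None of the 49 tested genes of the naming rule changed its call against no change. The ratios kept their differences (-0.91, -0.83, -0.48, 1.34 and -1.09). The depth left Psma8 and Psmb11 below what could be tested.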
